A study of Mus musculus with 6 samples.

Results

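The genes described here encode the proteins of the cytosolic ribosome. Members were all rows of the deposited expression table that map to a protein-coding mouse gene with a symbol of Rpl or Rps and digits (with the suffixes a, al, l or x and a copy digit after the suffix), to Rplp0, Rplp1, Rplp2 or to Rpsa. Pseudogenes and the S6 kinases were left out. The rule found 79 of the 13965 rows, 47 of them for the large and 32 for the small subunit. The annotation used holds 84 such genes, and the other 5 (Rpl10l, Rpl24, Rpl39l, Rpl3l and Rpl41) matched no row and were not analysed here. RNA was sequenced from whole mouse kidneys at embryonic day 16 in 6 libraries, 1 control and 1 mutant library from each of 3 litters. Control kidneys were labelled WT, miR-17~92 flx/+, so they carried 1 floxed copy of the microRNA cluster. Mutant kidneys were labelled Six2-TGC, miR-17~92 flx/flx. Six2-TGC is a transgene from which Six2-expressing nephron progenitors make Cre recombinase, so cells of other lineages keep the cluster. Because the control label names no Six2-TGC, the transgene and the loss of the cluster cannot be told apart. Nothing says whether a library came from 1 embryo or from pooled kidneys, so the p values measure the spread between these libraries.

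A cytosolic ribosome joins a small subunit, which reads the message, to a large subunit, which forms the peptide bond. A ribosome carries a single copy of nearly every ribosomal protein, and the stalk proteins are an exception. The messages are short and abundant. Most begin with a C followed by a run of pyrimidines, the 5′ terminal oligopyrimidine (TOP) tract, through which mTOR and the LARP1 protein adjust their translation together. In the embryonic kidney, nephron progenitors are a dividing population and need new ribosomes.

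The following start sites show that tract and 2 members in which it was not found. Each line is 30 bases of the sense strand, with 13 bases before and 17 from the start annotated in RefSeq (mouse build GRCm38.p6). Capitals mark a C followed by at least 4 bases that are each C or T, beginning within 10 bases of the start. Where several C fit, capitals begin at the one nearest to the start, and pyrimidines that precede it in the genome stay in lower case, as in all of the first 6. In these 6 the marked C is the annotated start itself, in Rpl13a and Rpl22l1 it lies 2 and 3 bases after it, and in Rps3a1 and Rpl36al no such tract was found.
Rpl15 (chr14:18270970-18270999, minus strand): gggagaaagccttCTTCCTTTCCTCTggcg
Rpl38 (chr11:114668567-114668596, plus strand): cggaagcctcgttCTTTCCCCgttctcttc
Rplp2 (chr7:141447638-141447667, plus strand): cgtcagcgtcttcCTTTCgccgccggacgc
Rps6 (chr4:86857351-86857380, minus strand): gcggaagtcgggcCTCTTTTTCgtgacgcc
Rps18 (chr17:33955649-33955678, minus strand): cgtcacttccgctCTCTCTTCCacaggagg
Rps27 (chr3:90213632-90213661, minus strand): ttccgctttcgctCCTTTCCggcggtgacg
Rpl13a (chr7:45128729-45128758, minus strand): aaccctgcgacaagaCCTCCTCCTTTCCCa
Rpl22l1 (chr3:28805495-28805524, plus strand): gcggcgcaagcccgttCTCTTCCCacggct
Rps3a1 (chr3:86142652-86142681, minus strand): aaagccggaagggcgaaagagcaagggtca
Rpl36al (chr12:69184051-69184080, minus strand): ttcccgtcgctcaggttcagttccgacttc

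Of the 79 members, 59 had a RefSeq window of 250 bases before to 50 after a start. The tract began within 10 bases of a start in 61.0% of these 59 genes, against 34.4% of all 27025 genes with a window and 37.0% of genes with a row in the table. A tract counted from the start base itself was present in 22.0% of the members (13 genes), 3.01% of all genes and 3.02% of genes with a row. The motif TATAAA, searched on the sense strand in the 50 bases before the start, was found in 1 member, Rpl22l1 (1.69% of members, 3.15% of all genes, 1.81% of genes with a row). CCGGAA, searched on both strands, occurred in 55.9% of the members' windows taken by gene, in 16.7% of all genes and in 29.6% of genes with a row. GGGCGG, also searched on both strands, occurred in 64.4% of the members, 38.2% of all genes and 68.4% of genes with a row. On the other strand CCGGAA begins with pyrimidines and can share bases with the tract. Members with a tract within 10 bases of the start (36 genes) had a median log2 change of -0.20 between mutant and control, and members without one (23 genes) a median of -0.21, which is nearly the same value.

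Values are CPM, read counts that the authors scaled to each library's total of 43804667 to 54913325 reads. These totals were worked out from the spacing of the values and are not stated by the authors in the sources used here. At these totals the values departed from whole reads by at most 2.74e-05 of a read. A separate check on low values alone did not accept them as whole reads. Every member passed the filter on low values, with 782 to 115824 reads in a library by these totals. In 16 members the row joins the gene with other genes at the same place, mostly small nucleolar RNAs in its introns. The value of such a row belongs to all of them, also where only the member is named below. Differences are on the scale of log2(CPM + 0.5), mutant minus control, and were tested with limma over 13766 rows. A row was called at a Benjamini-Hochberg adjusted p below 0.05.

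Ribosomal protein messages were lower in the mutant than in the control library of each litter for nearly every gene, by a small and similar amount. The median log2 change of the members was -0.205, or -13.3% in level, beside a median of 0.012 over all rows tested. Of the 79 members, 77 had a negative change (46.9% of all rows did), and 69 lay within 0.05 of the members' median. With genotype alone in the model, 0 of 79 members were called lower (0.196% of all rows were) and 0 higher (0.363% of all rows). At an unadjusted p below 0.05 there were 57 of 79, against 11.3% of all rows, and the lowest adjusted p was 0.113, for Rpl13a. With the litter as a block, which compares the 2 libraries of a litter, 68 of 79 were called lower (3.51% of all rows) and 0 higher (7.93% of all rows). That count depends on the handling of transcript length. With the trend of every library on length and GC content taken out, 61 were called lower with the length of the gene's median-length transcript (2.83% of all rows) and 0 higher (6.91% of all rows). With the length of its longest transcript, 13 were called lower (1.93% of all rows) and 1 higher (4.06% of all rows). Without litter 1 the paired count was 1 (0.501% of all rows), without litter 2 it was 65 (3.3%), and without litter 3 it was 73 (5.91%).

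The litters gave nearly the same shift. The members' median difference was -0.205 in litter 1, -0.188 in litter 2 and -0.228 in litter 3. In 75 of 79 members the mutant library was below the control library in 3 of 3 litters, as in 22.2% of all rows. Rpl34, Rps3a1 and Rpl36al were lower in 2 litters, and Rpl30 in 0. Every mutant library was below every control library in 50 of the 79 members (7.12% of all rows), 28 of the large and 22 of the small subunit. The order of the members within that shift was little alike between litters. Across the 79 members, Spearman's rho between the differences of litters 1 and 2 was 0.0289, between litters 1 and 3 it was 0.0271 and between litters 2 and 3 it was -0.252. These points share libraries and depth, and the values are descriptions. Libraries of litter 1 were low in both genotypes. Its control library was the lowest control in 62 members and its mutant library the lowest mutant in 59. The median standard error of a member's change was 0.0740 with genotype alone and 0.0379 with the block.

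**Figure D1:**
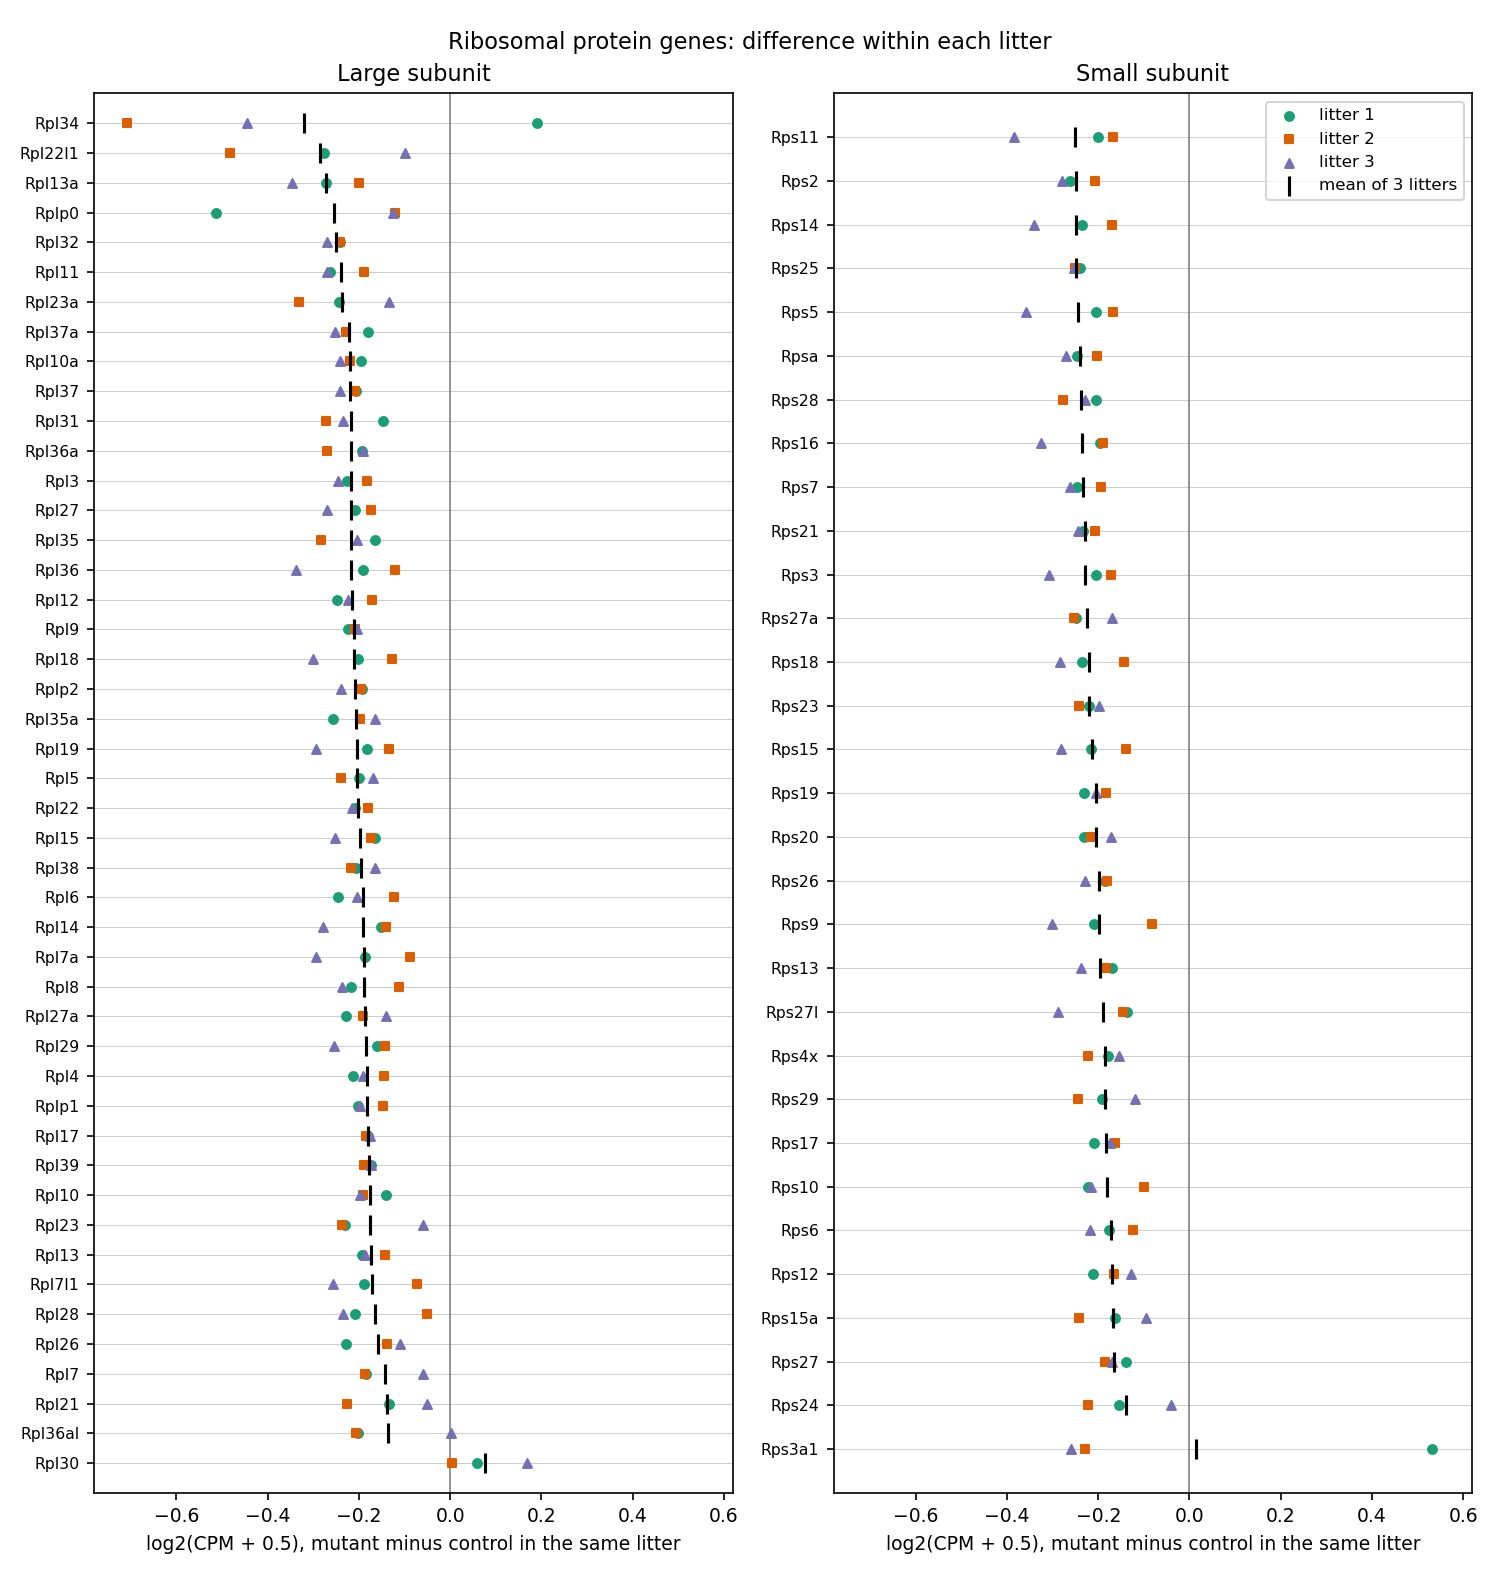
Difference in log2(CPM + 0.5) between the mutant and the control library of each litter, for large subunit genes (left) and small subunit genes (right), leaving out 2 members, ordered by their mean (black bar, n = 3 litters). Nearly all points lie left of 0 around -0.2, and Rpl34, Rps3a1 and Rpl30 have litters on the other side.

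As a share of all reads, the members took 5.33%, 5.75% and 5.70% in the control libraries of litters 1, 2 and 3, and 4.64%, 5.06% and 4.89% in the mutant libraries. The group means were 5.60% ± 0.231 and 4.86% ± 0.215 (SD, n = 3 each). The groups did not overlap, and within a litter the mutant share was the lower. Large subunit genes took 3.36% ± 0.122 in control and 2.92% ± 0.132 in mutant libraries. Small subunit genes took 2.24% ± 0.110 and 1.94% ± 0.0834. Both subunits were lower by a similar proportion. The ratio of large to small subunit reads was 1.528, 1.503 and 1.479 in control and 1.502, 1.510 and 1.502 in mutant libraries. These ranges overlapped, and the mean log2 ratio differed by 0.0015 between the groups, less than the SD over the control libraries of 0.0235. The median log2 change was -0.203 over the large and -0.207 over the small subunit. Paired by litter, 38 of 47 large and 30 of 32 small subunit genes were called lower (3.51% of all rows). These counts were 33 and 28 after removal of the median-length trend (2.83% of all rows). After removal of the longest-transcript trend they were 8 and 5 (1.93% of all rows), and 1 large subunit gene was called higher (4.06% of all rows). The order of levels was kept, with a Spearman rho of 0.997 between mean control and mean mutant CPM across the 79 members. Per kilobase of transcript, the median level of the members was 937 CPM in control libraries and 814 CPM in mutants.

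**Figure D2:**
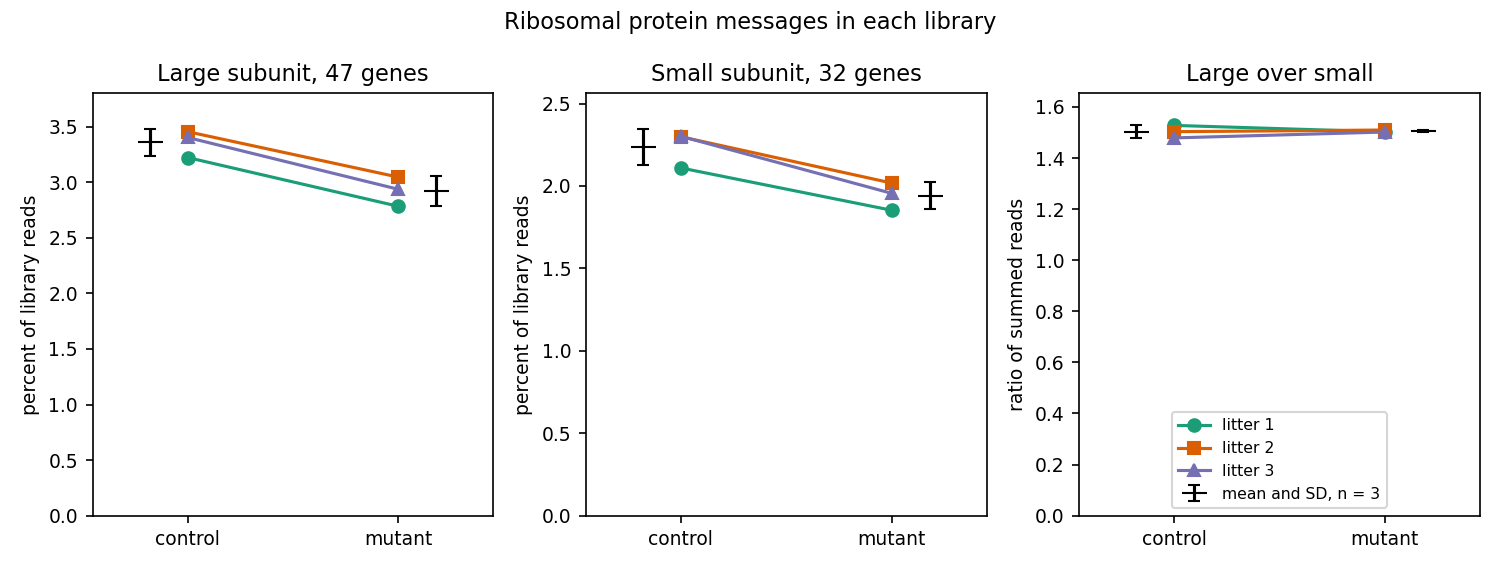
Percent of each library's reads in the 47 large subunit genes (left) and the 32 small subunit genes (middle), and the ratio of their summed reads (right), with a line for each litter and the mean and SD of 3 libraries at the sides. Every line falls in the left and middle plots, and the ratio stays between 1.479 and 1.528.

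Of the members described singly in the next paragraphs, Rpl23 and Rps27l lost the paired call when the trend on median-length transcripts was taken out (adjusted p = 0.120 and 0.0988). With the longest-transcript trend taken out, Rpl5, Rpl13a, Rpl22, Rps2, Rps3, Rps20 and Rpsa were called lower in the paired test, and the other paired calls given for single members were lost.

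Among large subunit proteins, Rpl13a was the most abundant row. The protein is also known for leaving the ribosome to silence inflammatory messages. Its level was 2093, 2226 and 2341 CPM in control and 1732, 1939 and 1840 CPM in mutant libraries of litters 1, 2 and 3. All mutant libraries were below all control libraries (log2 change -0.27, SE 0.066, adjusted p = 0.113, 0.00642 paired by litter, 0.0220 paired after removal of the longest-transcript trend). The row also holds the small nucleolar RNAs Snord32a, Snord33 and Snord34 and the predicted gene Gm45713. Rpl10, which joins the large subunit late in its maturation, stood at 1682, 1770 and 1747 CPM in control and 1526, 1550 and 1524 CPM in mutant libraries, again without overlap (log2 change -0.18, adjusted p = 0.236, 0.0174 paired). Its row is joined with the small nucleolar RNA Snora70. Rpl3 lies close to the centre where peptide bonds form. It went from 1280, 1231 and 1221 CPM to 1095, 1085 and 1030 CPM, and no mutant library reached a control library (log2 change -0.22, adjusted p = 0.170, 0.00922 paired). Rpl4, which lines the exit tunnel of the nascent chain, had 1614, 1553 and 1564 CPM in control and 1392, 1405 and 1370 CPM in mutant libraries (log2 change -0.18, adjusted p = 0.220, 0.0159 paired).

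Rpl5 and Rpl11 form a particle with the 5S rRNA that, when it is free of the ribosome, binds Mdm2 and stabilises p53. Rpl5 was measured at 1350, 1316 and 1282 CPM in control and at 1174, 1114 and 1141 CPM in mutant libraries. For Rpl11 the values were 1023, 1106 and 1079 CPM against 853, 970 and 896 CPM. In both genes the groups did not overlap. Rpl5 had a log2 change of -0.20 (adjusted p = 0.193, 0.0116 paired) and Rpl11 of -0.24 (adjusted p = 0.193, 0.00760 paired). After removal of the longest-transcript trend, the paired adjusted p was 0.0313 for Rpl5 and 0.0661 for Rpl11. Rpl38 is known from mice with altered axial patterning, in which Hox messages are translated less. Its message had 290, 348 and 310 CPM in control and 251, 299 and 276 CPM in mutant libraries, so the groups overlapped while each litter differed in the same direction (log2 change -0.20, adjusted p = 0.469, 0.0169 paired). Rpl23, the shortest member by its median-length transcript of 334 bases, had 991, 996 and 923 CPM in control and 845, 845 and 886 CPM in mutant libraries, without overlap (log2 change -0.18, adjusted p = 0.314, 0.0402 paired). Rpl21 stood at 408, 437 and 375 CPM and 372, 373 and 362 CPM, with a log2 change of -0.14 that was called neither way (adjusted p = 0.532, 0.0781 paired).

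The stalk of the large subunit, where elongation factors dock, is built from Rplp0 and the acidic proteins Rplp1 and Rplp2. Rplp0 had 1177, 1480 and 1470 CPM in control and 825, 1360 and 1347 CPM in mutant libraries. Its libraries of litter 1 stood far below the others, and its difference was -0.51 in that litter and -0.12 in each of the other two. The change of -0.25 was called neither with genotype alone (adjusted p = 0.626) nor paired (0.0575). Rplp1 went from 492, 582 and 564 CPM to 427, 526 and 492 CPM, and Rplp2 from 339, 428 and 487 CPM to 296, 374 and 412 CPM. Both spanned a wide range between litters, so that the groups overlapped, while each litter's mutant library was the lower. Paired by litter, Rplp1 (log2 change -0.18, adjusted p = 0.0184) and Rplp2 (log2 change -0.21, adjusted p = 0.0123) were called, and with genotype alone neither was (adjusted p = 0.510 and 0.635).

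Rps4x, Rpsa, Rps3 and Rps2 were among the most abundant rows of the small subunit. Of these, Rps4x is the X-linked member of its family and had 1280, 1293 and 1256 CPM and 1131, 1108 and 1128 CPM (log2 change -0.19, adjusted p = 0.220, 0.0152 paired). Rpsa also serves as a laminin receptor at the cell surface. It was measured at 1210, 1316 and 1316 CPM in control and 1021, 1143 and 1091 CPM in mutant libraries (log2 change -0.24, adjusted p = 0.188, 0.00670 paired, 0.0154 paired after removal of the longest-transcript trend). In Rps4x and Rpsa each mutant library was below each control library. Rps3, which lines the channel where the message enters and also has a role in DNA repair, had 1054, 1124 and 1137 CPM and 914, 998 and 919 CPM (log2 change -0.23, adjusted p = 0.193, 0.0116 paired). Rps2 is a target of arginine methylation. It stood at 906, 1000 and 1114 CPM in control and 756, 866 and 918 CPM in mutant libraries, where the highest mutant value passed the lowest control value (log2 change -0.25, adjusted p = 0.339, 0.00625 paired).

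Rps6 is the substrate of the S6 kinases and the usual readout of mTOR activity. Its message had 756, 762 and 766 CPM in control and 669, 699 and 658 CPM in mutant libraries, without overlap (log2 change -0.17, adjusted p = 0.307, 0.0238 paired). Rps19, the gene most often mutated in Diamond-Blackfan anaemia, had 745, 833 and 820 CPM against 635, 734 and 712 CPM (log2 change -0.21, adjusted p = 0.339, 0.0112 paired). Rps14 is the gene linked to the anaemia of the 5q- syndrome. It went from 734, 800 and 825 CPM to 623, 711 and 652 CPM, with no mutant library reaching a control library (log2 change -0.25, adjusted p = 0.222, 0.0111 paired). Rps27a is made as a fusion with ubiquitin, and its row fell from 830, 828 and 786 CPM to 698, 695 and 698 CPM when tested by litter (log2 change -0.22, adjusted p = 0.168, 0.00984 paired). Rps20 had the longest median-length transcript of the members, 3706 bases, and stood at 740, 834 and 781 CPM in control and 631, 718 and 694 CPM in mutant libraries. Its change of -0.21 equalled the median over all members (adjusted p = 0.321, 0.0116 paired). Rps24 had 575, 597 and 546 CPM and 516, 512 and 530 CPM, a change of -0.14 that was not called (adjusted p = 0.466, 0.0743 paired).

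Rpl22 and its paralogue Rpl22l1 are known for mutual control, in that Rpl22 protein lowers Rpl22l1 mRNA. Rpl22 stood at 606, 609 and 607 CPM in control and 524, 538 and 523 CPM in mutant libraries, a narrow spread in each group with no overlap (log2 change -0.20, adjusted p = 0.225, 0.0121 paired). Rpl22l1 had 186, 194 and 163 CPM in control and 153, 139 and 153 CPM in mutant libraries. Its change of -0.29 was among the most negative (adjusted p = 0.240, 0.0336 paired), and the groups did not overlap. The other 3 paralogues were Rps27l, a p53 target, Rpl7l1 and Rpl36al. Rps27l had 176, 175 and 184 CPM and 160, 158 and 151 CPM (log2 change -0.19, adjusted p = 0.357, 0.0377 paired). Rpl7l1 had 152, 147 and 163 CPM and 134, 140 and 136 CPM, not called either way (log2 change -0.17, adjusted p = 0.448, 0.0571 paired). Rpl36al had 94.7, 111 and 90.4 CPM and 82.2, 96.2 and 90.5 CPM, with overlap, a change of -0.14 and nearly equal values in litter 3 (adjusted p = 0.676, 0.150 paired). All 4 ranked between 73 and 78 of the 79 members by mean CPM. Per kilobase of transcript, Rpl23a (45.9 CPM), Rpl7l1 (118 CPM), Rpl35 (123 CPM) and Rpl36al (130 CPM) were the 4 lowest members in control kidneys, and Rpl13a (4485 CPM), Rpl23 (2903 CPM) and Rpl10 (2675 CPM) the 3 highest. These levels depend on the transcript taken for the length, here the median-length one, which for Rpl23 had 334 bases, the shortest of the members. They also depend on how reads that also match processed copies were counted, which is not given in the sources used here.

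Besides Rpl36al, 3 members departed from the common shift, and for Rpl34 and Rps3a1 the table lists near-identical copies. Rpl34 had 219, 429 and 400 CPM in control and 250, 262 and 293 CPM in mutant libraries, so that its control library of litter 1 was the lowest of the 6 and its differences ran from 0.19 to -0.71. Its copy Rpl34-ps1 had 65.1, 0.50 and 0.40 CPM in control and 43.8, 46.3 and 33.3 CPM in mutant libraries, near 0 in the 2 control libraries in which the parent was high. Summed, parent and copy gave 284, 429 and 400 CPM in control and 294, 309 and 327 CPM in mutant libraries, a log2 difference of -0.24 against -0.32 for the parent alone (adjusted p = 0.604, 0.159 paired). Without the control library of litter 1 the parent had a change of -0.63 (adjusted p = 0.00648) and was the only member called (0.254% of all rows were called lower). In the paired test without litter 1 it was again the only member called, with a change of -0.58 (adjusted p = 0.00642).

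Rps3a1 had 542, 753 and 871 CPM in control and 784, 643 and 727 CPM in mutant libraries. The difference was 0.53 in litter 1 and negative in litters 2 and 3, and the change over all libraries of 0.01 was not called (adjusted p = 0.987, 0.959 paired). Its processed copies Rps3a2 and Rps3a3 together had 223, 167 and 104 CPM in control and 84.7, 145 and 112 CPM in mutant libraries. They were highest where the parent was lowest. The sum was 764, 921 and 975 CPM in control and 868, 788 and 839 CPM in mutant libraries, a log2 difference of -0.09, with 0.18 in litter 1 and -0.22 in each of litters 2 and 3. For both genes a read that fits parent and copy equally well cannot be assigned to one of them, and the part of such reads in these values was not tested.

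**Figure D3:**
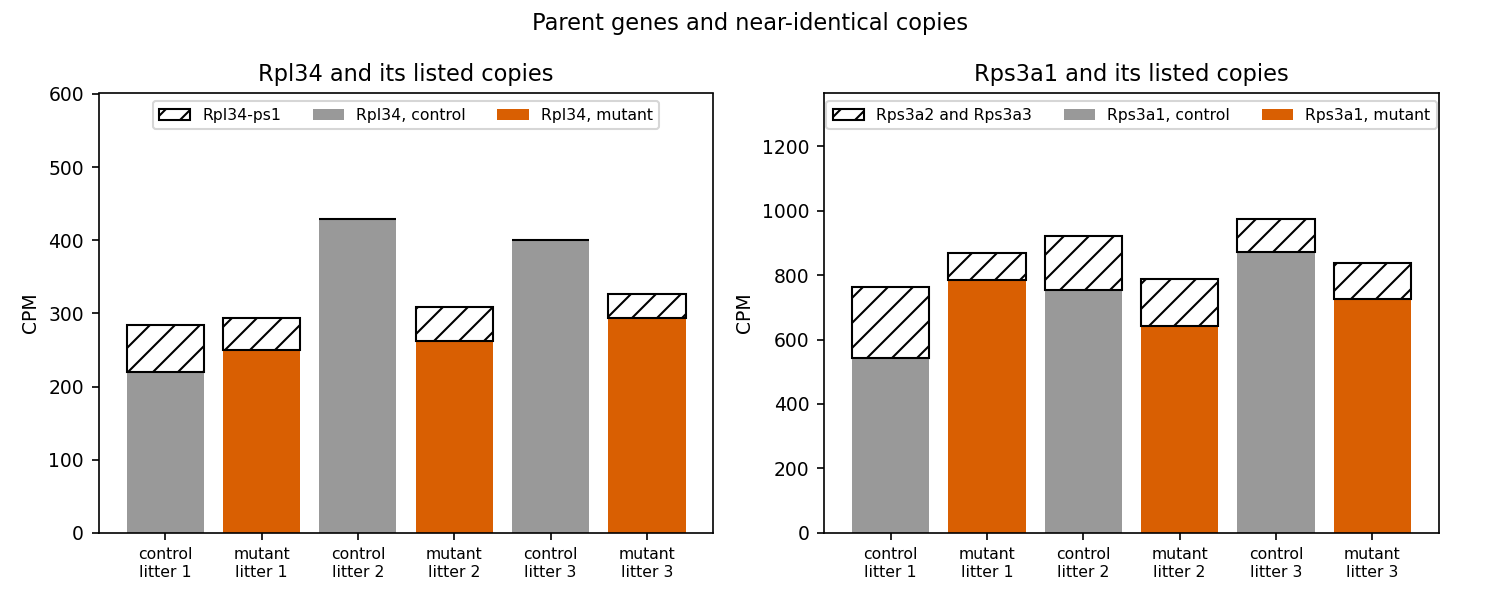
CPM in each library of Rpl34 with its copy Rpl34-ps1 (left) and of Rps3a1 with its copies Rps3a2 and Rps3a3 (right), with the parent as a filled bar and the copies hatched on top. The copy of Rpl34 is near 0 in the control libraries of litters 2 and 3, and the Rps3a1 copies are largest, 223 CPM, in the control library of litter 1.

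Rpl30, whose protein binds its own transcript in yeast, had the highest change of the members. It had 334, 271 and 295 CPM in control and 348, 271 and 332 CPM in mutant libraries, and the groups overlapped. The change of 0.08 was called in neither test (adjusted p = 0.847, 0.282 paired). After removal of the longest-transcript trend it was 0.19 and was called higher in the paired test (adjusted p = 0.0337, 4.06% of all rows). Its row is joined with a small nucleolar RNA, Gm24523, and the 2 cannot be told apart.

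Ribosomal protein transcripts are short, and short transcripts as a whole were lower in the mutant libraries. The members' median length was 644 bases, against 1923 bases over all rows, counting each gene's median-length transcript, and 946 against 3202 bases counting its longest. Across 13517 rows, Spearman's rho between length and log2 change was 0.294 with the median-length and 0.442 with the longest transcript. Genes are not independent replicates in these values, which are given without a test. Across the 79 members the same rho was 0.0795 and 0.0915, over a narrow range of lengths. By the median-length transcript 68 of them were under 1000 bases and 2 over 2000 bases. The 68 members under 1000 bases had a median change of -0.207, and the 3776 other rows of that length a median of -0.030. For the 9 members of 1000 to 2000 bases it was -0.190 against -0.032. For the 2 members over 2000 bases, Rps20 and Rpl22, it was -0.203 against 0.059. Classed by the longest transcript, 44 members under 1000 bases had a median of -0.208 against -0.106 in 593 other rows. The 28 members of 1000 to 2000 bases had -0.197 against -0.076, and the 7 over 2000 bases -0.203 against 0.042. In each class the members' median was the lower.

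The trend on length differed between libraries. Each library's deviation from the mean of all 6 correlated with the longest-transcript length at a rho of -0.101, -0.447 and -0.124 in the control libraries of litters 1, 2 and 3, and at 0.231, -0.0232 and 0.479 in the mutant libraries. The members' median deviation in the same order was 0.03, 0.15 and 0.13 in control and -0.18, -0.03 and -0.10 in mutant libraries. In each library the 2 values had opposite signs, apart from the mutant library of litter 2, where both were slightly negative. The mutant library of litter 3 had the steepest trend, while the members were lowest in that of litter 1. No test of this relation was made. Removal of the trend on length and GC content from each library took the members' median change from -0.205 to -0.164 with the median-length transcript and to -0.100 with the longest. In the latter fit 13 members were called lower paired by litter, among them Rpl5, Rpl9, Rpl13a, Rpl15, Rpl18, Rpl22, Rpl32, Rps2, Rps3, Rps15a, Rps20 and Rpsa. Of the 7 members with a longest transcript over 2000 bases 6 were among the 13, of the 28 in the middle class 6, and of the 44 under 1000 bases 1. Rps15a, for example, has a median-length transcript of 637 bases and a longest of 5179 bases, and its change went from -0.17 to -0.24 with the longest-transcript trend removed. After that removal the members' changes correlated with longest-transcript length at a rho of -0.408. The table gives 1 value per gene, so which transcript was expressed is not known from it.

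**Figure D4:**
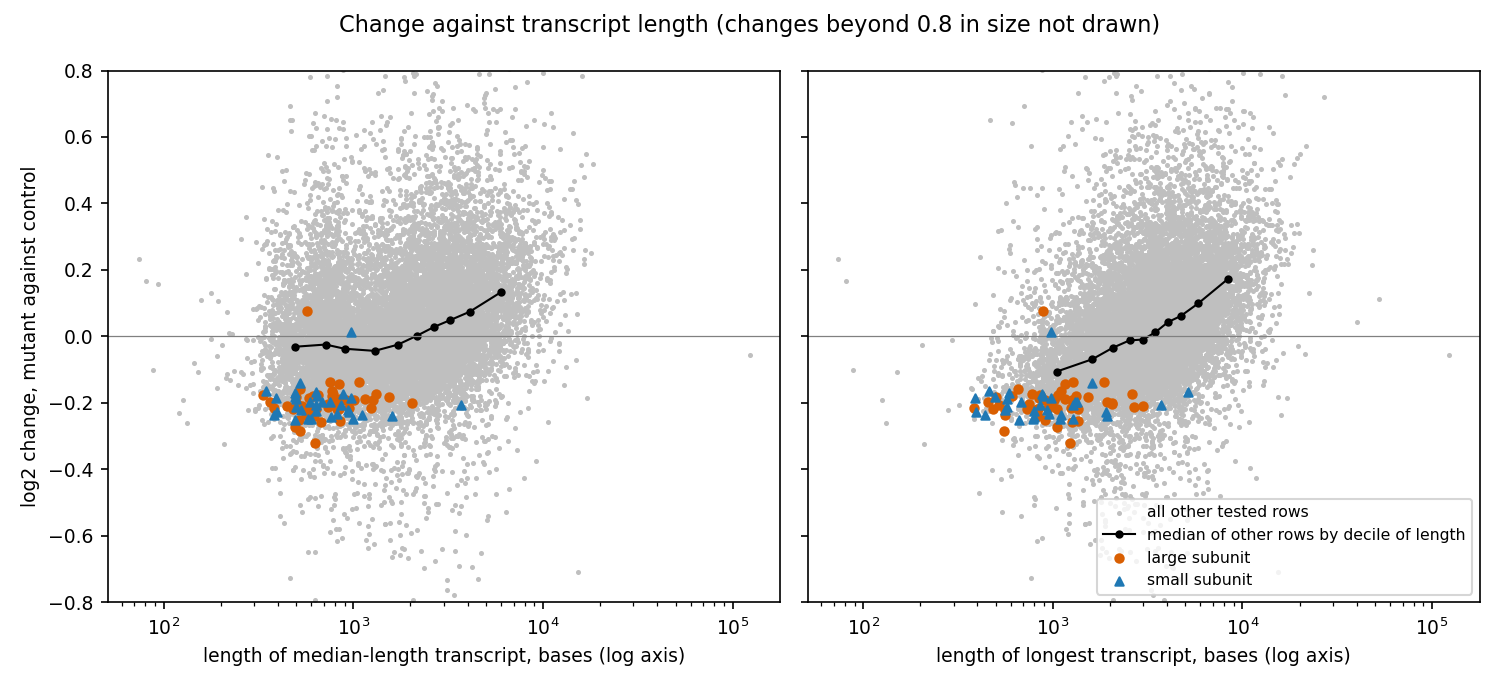
Log2 change between mutant and control against transcript length on a log axis, with the median-length transcript (left) and the longest transcript (right) of each gene, for the large subunit (circles), the small subunit (triangles) and all other rows (grey), with the median of other rows by decile of length (black line). Nearly all members lie in a band near -0.2, below the black line, which rises with length more steeply on the right. Rpl30 and Rps3a1 lie above 0, and few members are over 2000 bases (2 on the left, 7 on the right).

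Other genes of the pathway were taken from lists of known roles. Of 3 ribosomal proteins that the symbol rule misses, Fau and Rack1 had a row. Rack1, a scaffold on the small subunit, had 1293, 1319 and 1356 CPM in control and 1112, 1221 and 1129 CPM in mutant libraries (log2 change -0.20, adjusted p = 0.238, 0.0203 paired). Its row is joined with the small nucleolar RNAs Snord96a, Gm25296 and Snord95. Fau, a ubiquitin-like fusion with Rps30, had 369, 441 and 424 CPM and 317, 401 and 359 CPM (log2 change -0.20, adjusted p = 0.50, 0.0183 paired). Neither was called after removal of the longest-transcript trend. The 15 TOP messages that encode translation factors and other proteins had a median change of -0.13. Of these, 6 were called lower paired (Eef1a1, Eef1b2, Eif3e, Tpt1, Npm1 and Hnrnpa1; 3.51% of all rows) and 0 higher (7.93% of all rows). The counts were 5 lower and 1 higher after removal of the median-length trend (2.83% and 6.91% of all rows). After removal of the longest-transcript trend they were 1 lower and 1 higher (1.93% and 4.06% of all rows). Eef1a1, the elongation factor that delivers aminoacyl-tRNA, had 5332, 5413 and 5561 CPM in control and 4759, 4843 and 4968 CPM in mutant libraries (log2 change -0.16, adjusted p = 0.218, 0.0197 paired). Its row is joined with the microRNA gene Gm26377. Eef2, which moves the ribosome along the message, had a change of -0.09 (adjusted p = 0.786, 0.205 paired), and Vim, the intermediate filament gene on that list, of 0.14 (adjusted p = 0.562, 0.0725 paired). Vim was the gene called higher paired after each of the 2 trend removals (adjusted p = 0.0307 with the median-length trend removed).

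The 39 genes for factors that assemble ribosomes had a median of -0.13, with 3 called lower paired (Fbl, Dkc1 and Ebna1bp2; 3.51% of all rows) and 0 higher (7.93% of all rows). All 3 lost the call after removal of the median-length trend (adjusted p = 0.0973, 0.0707 and 0.0840). In that fit 1 other gene was called lower (2.83% of all rows) and Utp20 higher (0.0320, 6.91% of all rows). After removal of the longest-transcript trend 3 were called lower (1.93% of all rows) and 0 higher (4.06% of all rows). The 9 genes for RNA polymerase I and its factors had a median of -0.008, with 1 called lower paired (3.51% of all rows). It was Polr1c, a subunit shared with RNA polymerase III, which was not called after removal of the median-length trend (adjusted p = 0.0619). The 16 regulators of TOP messages, among them Mtor and Larp1, had a median of 0.000, with 1 called lower paired (3.51% of all rows) and 0 higher (7.93% of all rows). That one was Myc, a transcription factor that drives ribosome production, at 48.5, 60.7 and 59.2 CPM in control and 40.4, 52.6 and 52.5 CPM in mutant libraries (log2 change -0.21, adjusted p = 0.589, 0.0395 paired). Myc was not called after removal of the median-length trend (adjusted p = 0.0632), where Mtor was called higher (0.0458), and 0 of the 16 were called after removal of the longest-transcript trend. Among 6 genes linked to ribosomal stress, 1 was called higher paired (7.93% of all rows). This was the cell cycle inhibitor Cdkn1a, at 20.7, 17.5 and 23.7 CPM against 22.5, 25.9 and 30.9 CPM (log2 change 0.35, adjusted p = 0.402, 0.0453 paired). Cdkn1a was still called higher paired after removal of the median-length trend (adjusted p = 0.0281, 6.91% of all rows). After removal of the longest-transcript trend 2 of the 6 were called higher paired (4.06% of all rows). Trp53 itself had a change of 0.01 and Mdm2 of 0.08, and neither was called with genotype alone or paired. With genotype alone limma called 0 of the 87 genes of these 6 lists (0.196% of all rows lower, 0.363% higher). An unadjusted p below 0.05 was found in 7 of them, or 8.05% against 11.3% of all rows.

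The 3 other groups of widely expressed genes compared here also had negative medians. The 74 mitochondrial ribosomal protein genes had a median of -0.14, with 3 called lower paired, a share near that of all rows (3.51%). For 36 proteasome subunits it was -0.14, with 8 called lower, and for 71 genes of oxidative phosphorylation -0.17, with 28 called lower. After removal of the median-length trend these counts were 3, 1 and 12 (2.83% of all rows). After removal of the longest-transcript trend they were 3, 2 and 3 (1.93% of all rows). None was called higher in these fits (7.93%, 6.91% and 4.06% of all rows in the same order). With genotype alone limma called 0 in the 3 groups (0.196% of all rows lower, 0.363% higher). An unadjusted p below 0.05 was found in 3, 5 and 20 genes, against 11.3% of all rows. After removal of the longest-transcript trend the 3 medians were -0.06, -0.05 and -0.06, and that of the cytosolic ribosomal proteins -0.10. The differences between these groups were not tested.

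**Figure D5:**
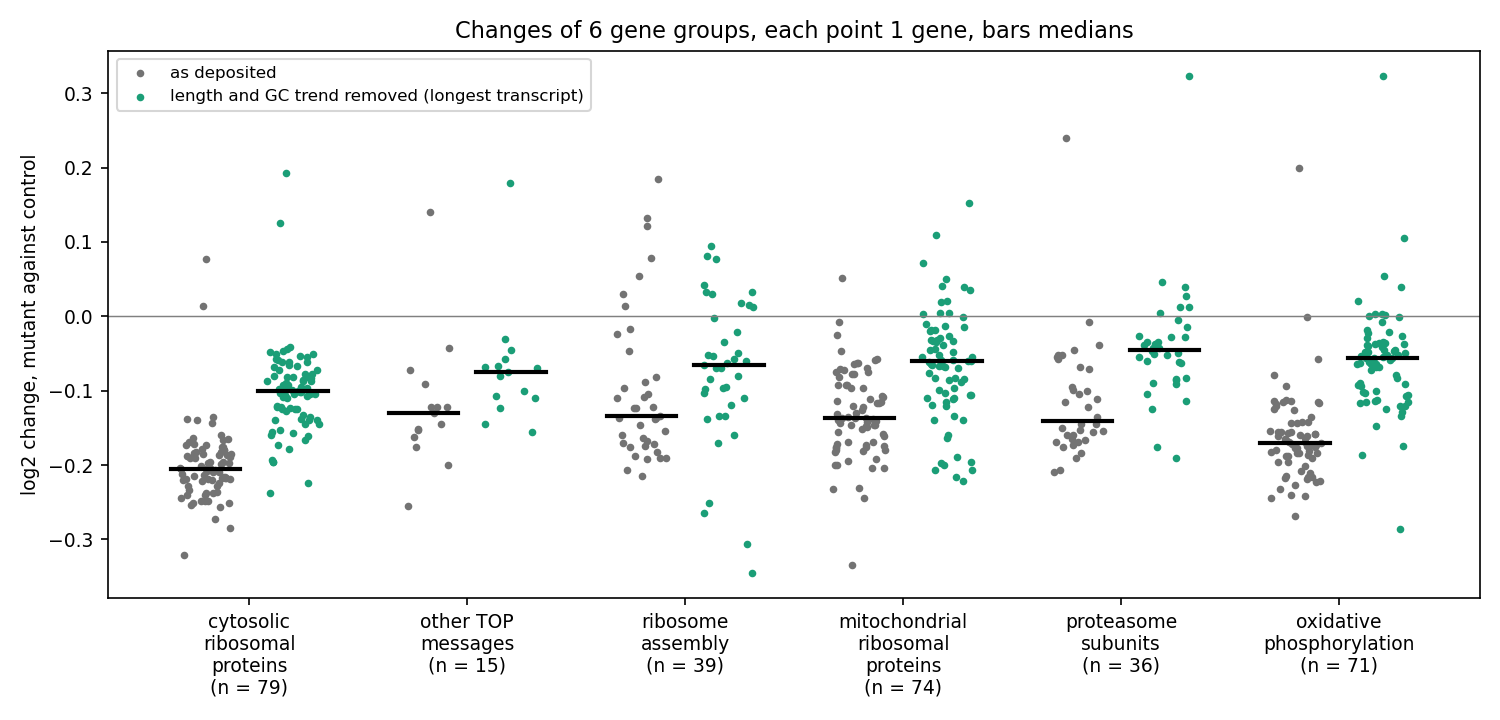
Log2 change between mutant and control of each gene in 6 groups, before (grey) and after (green) removal of the longest-transcript trend, with the median as a bar. The cytosolic ribosomal protein genes have a median of -0.205 before and -0.100 after, and the bars of all 6 groups move toward 0.

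Because the libraries are from whole kidneys, fewer cells of a type and less RNA per cell cannot be told apart. Kidney markers were present, and the summed levels of several marker lists differed between control and mutant libraries. The makeup of the libraries was not estimated. The summed level of 8 nephron progenitor markers was 508 to 518 CPM in control and 444 to 462 CPM in mutant libraries, and Cited1 and Meox1 were called lower with genotype alone. Six2 and Eya1 were called lower paired by litter, and the other 4 (Osr1, Sall1, Gdnf and Itga8) had changes of 0.00 to 0.12 and were not called. Stromal markers (5 genes) summed to 996 to 1182 CPM and 1263 to 1397 CPM, endothelial markers (4 genes) to 480 to 517 CPM and 589 to 605 CPM, proximal tubule markers (5 genes) to 624 to 715 CPM and 756 to 922 CPM, and ureteric markers (6 genes) to 510 to 538 CPM and 565 to 602 CPM. None of these ranges overlapped. The median lengths of these 4 lists were 5064, 3777.5, 3983 and 2084 bases in the same order, against 1923 bases over all rows. Paired by litter, 2, 3, 3 and 2 of their genes were called higher (7.93% of all rows). After removal of the longest-transcript trend these counts were 1, 3, 0 and 1 (4.06% of all rows). The part of the length trend in the sums was not tested. The lists were also not uniform. Lrp2 (mean 332 CPM in control, 479 CPM in mutant libraries) made up most of the proximal tubule difference, while Slc34a1 (0.02) and Slc22a6 (-0.04) had log2 changes near 0 that were not called. In the ureteric list Calb1 had the highest level (270 and 310 CPM), Ret was called higher paired by litter, and Wnt11 (-0.17) and Aqp2 (-0.20) had negative changes that were not called. The sums of podocyte, erythroid and macrophage markers overlapped between the groups. All 5 podocyte markers had negative changes, and Nphs1 and Wt1 were called lower paired (3.51% of all rows). After removal of the longest-transcript trend 2 of the 5 were called lower (1.93% of all rows). Of 6 skeletal muscle markers 0 had a row, of 4 adrenal markers 1, and of 4 liver markers 3. The liver sums, 125 to 134 CPM in control and 92.2 to 109 CPM in mutant libraries, did not overlap. Of these genes Afp (log2 change -0.43) was called lower paired (adjusted p = 0.00481), and Alb (0.81) and Ttr (-0.13) were not called. The part of these shifts in the level of ribosomal protein messages was not tested.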

How the data were processed

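The table holds CPM, read counts that the authors scaled to each library's total before they deposited it. Per the submitters' processing notes, TopHat2 2.0.9, Picard, SAMtools and NCBIM37 were used. The counter, its annotation and its use of strand are not given in the sources used here. Of 13965 rows, 526 join several genes. Symbols, biotypes and transcript lengths came from GENCODE M21 and matched 13695 rows, and start sites came from RefSeq.

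Tests covered the 13766 rows that reached 1 CPM in 3 or more libraries. The model was fitted by limma (version 3.58.1, R version 4.3.3) to log2(CPM + 0.5), trend option on, with genotype as its only term, and p values were adjusted by Benjamini-Hochberg over these rows. Litter as a block was the alternative. The labels name each library's litter, and deviations from group means correlated at 0.619, 0.446 and 0.312 within litters and at -0.514 to 0.172 between them. Trends on length and GC content were removed from each library with splines. The fit with the longest transcript was added after the median-length fit had been seen.

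The members and lists were chosen with earlier results of these data known. Members named with values were the 5 most abundant of each subunit, the 5 lowest and 5 highest changes, every paralogue, the shortest and the longest, and members with roles listed beforehand. Other members named, such as Rps15a and Rpl23a, were chosen after their values were seen. Library totals and read numbers were worked out from the spacing of the CPM values. At these totals the values departed from whole reads by at most 2.74e-05 of a read, but a separate check on low values alone, of which the table lists few, did not accept them as whole reads. The count models planned as alternatives were therefore not run. Results for 2 members are not reported here by name.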

Additional observations from a re-analysis of the deposited data

How the results depend on the processing

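Over all rows, 77 were called with genotype alone. The number was 1574 with the litter block, 1502 with the block and median-ratio scaling, 182 and 1340 without and with the block after removal of the length and GC trend, 153 and 824 after removal of the longest-transcript trend, and 45 among rows with a mean of at least 5 CPM. It ran from 23 to 103 with 1 library left out, and was 336, 1412 and 2295 with the block and litter 1, 2 or 3 left out. Members called lower numbered 0 with genotype alone, 68 with the block, 71 with the block and median-ratio scaling, 61 with the block after removal of the length and GC trend, and 13 after removal of the longest-transcript trend, where 1 was called higher. With 1 library left out this number was 0 to 1, and with the block and litter 1, 2 or 3 left out it was 1, 65 and 73. The members' median of -0.205 moved to -0.164 and -0.1 with the 2 trend removals, with or without the block, and ran from -0.247 to -0.164 with 1 library left out. For the large subunit it moved from -0.203 to -0.162 and -0.0988, to -0.218 under TMM scaling and to -0.22 under median-ratio scaling, with or without the block, and ran from -0.243 to -0.161. For the small subunit it moved from -0.207 to -0.169 and -0.105, and ran from -0.25 to -0.168. Median length went from 644 to 946 bases for the members and from 1923 to 3202 for all rows with the longest transcript. Rps3a1 changed sign, from 0.0142 to -0.000149 under TMM scaling, -0.00214 under median-ratio scaling with or without the block, -0.0859 with its copies summed, and -0.245 with the block and litter 1 left out. With 1 library left out it ran from -0.179 to 0.163, negative without either library of litter 1. Where no value shows it, the cause was not tested. The difference in the ratio of large to small subunit reads stayed between -0.0103 and 0.0132 under each alternative run. The planned count tests were not run. The block changed the call of no named member beyond those printed with their paired p. Members had 782 or more reads in a library, and each group held 3 libraries.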

Other observations

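Besides the protein-coding members, the table lists 17 rows for processed or retrotransposed copies of ribosomal protein genes, and 16 passed the filter. Their summed level was 175 to 348 CPM in control and 195 to 255 CPM in mutant libraries. With limma 0 were called with genotype alone (0.196% of all rows lower, 0.363% higher). Paired by litter 0 were called as well (3.51% of all rows lower, 7.93% higher). An unadjusted p below 0.05 was found in 3 with genotype alone (11.3% of all rows) and in 4 paired. Rps13-ps1 was read in some libraries and nearly absent in others, with 5.59, 0.0227 and 0.0202 CPM in the control libraries of litters 1, 2 and 3 and 5.59, 0.0182 and 3.19 CPM in the mutant libraries. Rpl34-ps1 had a similar pattern, below 1 CPM in the control libraries of litters 2 and 3 and at least 33.3 CPM in the other 4. The libraries in which each copy was nearly absent included the control libraries of litters 2 and 3 for both, and the mutant library of litter 2 for Rps13-ps1 alone.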
